A study of Mus musculus with 16 samples.

Results

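The proteoglycan core proteins described here were syndecans 1 to 4 (Sdc1, Sdc2, Sdc3 and Sdc4), glypican 1 (Gpc1), serglycin (Srgn), versican (Vcan), CD44 (Cd44), agrin (Agrn) and perlecan (Hspg2). All probes of these genes on the array were taken by their platform gene symbol, which gave 18 probes for 10 of 10 genes, of 25697 probes in all. RNA came from bone marrow derived macrophages, cells grown from the marrow of 12 week old C57BL6 mice with macrophage colony stimulating factor, and was hybridised to 16 single-colour Illumina mouse arrays. The groups were Ndst1-deficient macrophages (Ndst1f/fLysMCre+) given 50 µg/ml aggregated LDL (agLDL) for 24 hours, the same left untreated (0 µg/ml), wild-type macrophages (Ndst1f/fLysMCre-) given agLDL, and the same left untreated, with 4 arrays in each. All mice carried the floxed Ndst1 gene, so the genotypes differed by the Cre recombinase, which LysMCre expresses from the lysozyme locus in myeloid cells, and agLDL is a form of low density lipoprotein that loads macrophages with cholesterol. No probe of Ndst1 was analysed here, so the genotype is given as labelled. The labels also number each array by mouse and by duplicate, written below as mouse.duplicate (2.2, 2.1, 1.2 and 1.1), so each genotype label held 2 mice with 4 arrays each.

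Proteoglycans are proteins that carry long sugar chains, the glycosaminoglycans, on a protein core. Ndst1 encodes an enzyme that replaces acetyl by sulfate groups on the growing heparan sulfate chain, so it acts on the chains and not on the cores measured here. Syndecans cross the plasma membrane, glypican 1 is held there by a lipid anchor, and agrin and perlecan are secreted into basement membranes; all carry mainly heparan sulfate. Serglycin is packed into the granules of blood cells, and versican carries chondroitin sulfate in the matrix. CD44 is the main surface receptor for hyaluronan and carries heparan sulfate only in some of its splice forms. In macrophages, cell-surface heparan sulfate binds lipoproteins, lipases and chemokines.

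Of the genes that passed the filter described below, Cd44 and Agrn differed most between arrays and moved in opposite directions between duplicate numbers, so the 250 bases before their annotated starts are shown. Both are from RefSeq (GRCm38.p6), on the minus strand and written 5′ to 3′, with GC boxes (GGGCGG on either strand) in capitals. The Cd44 window lies at chr2:102901666-102901915 and the Agrn window, the upstream of its 2 listed starts, at chr4:156197489-156197738.
Cd44: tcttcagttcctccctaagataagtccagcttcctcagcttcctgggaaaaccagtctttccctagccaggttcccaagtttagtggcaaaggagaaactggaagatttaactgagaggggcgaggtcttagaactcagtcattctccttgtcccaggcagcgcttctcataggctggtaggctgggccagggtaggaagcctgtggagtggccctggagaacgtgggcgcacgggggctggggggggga
Agrn: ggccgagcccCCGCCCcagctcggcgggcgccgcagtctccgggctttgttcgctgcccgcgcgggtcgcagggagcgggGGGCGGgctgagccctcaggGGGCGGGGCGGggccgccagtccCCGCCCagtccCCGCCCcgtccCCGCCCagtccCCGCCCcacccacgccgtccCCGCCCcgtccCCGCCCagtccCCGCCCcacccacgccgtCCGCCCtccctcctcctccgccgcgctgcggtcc
The Cd44 window was 56.4% G or C and held 0 GC boxes, and the Agrn window was 83.6% G or C and held 12, of which 2 overlapped each other. Over 32851 RefSeq promoter windows of the same length, 32.7% held a GC box. Promoters of 8 of the 10 genes were listed, as 10 windows. GC boxes were found before Sdc1 (3), Sdc3 (3), Sdc4 (4), Vcan (2), Hspg2 (5) and the downstream start of Agrn (2), and 0 were found at both starts of Srgn. The AP-1 motif TGANTCA was in 0 of the 10 windows, against 6.7% of all windows, and the E-box CACGTG in 0, against 6.0%. The core letters CCGGAA of ETS factor sites were in the Sdc4 window and 1 Srgn window, against 12.0% of all windows, and TATAAA was in 1 Srgn window, against 12.4%. These matches are letters in a window and no measure of binding.

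A probe was called detected on an array where its detection p (the share of negative controls with a higher signal) was under 0.01, and it was tested where this held on at least 4 of the 16 arrays. This left 10224 probes of the array and 7 of the 18 core protein probes, for 6 of the 10 genes. Raw values are mean bead signals that still include background, and their median over all probes lay between 148 and 161.3 on the 16 arrays. The dimmest detected probe of an array read between 173.5 and 194.

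Syndecan 3, best known from the nervous system, had a raw signal between 14891 and 20396. Syndecan 4, a focal adhesion co-receptor that signals through protein kinase C, read between 839 and 1197, and glypican 1 read between 313 and 478. Agrin, known as the nerve-derived organizer of the neuromuscular junction, read between 1097 and 1944. All 4 were detected on 16 of 16 arrays by their only probe. Serglycin was read by a probe at 254 to 402, detected on 16 arrays, and by a dimmer one at 179 to 235, detected on 15. Raw signals of different probes depend on the probe as well as on the RNA, so they give no order of the genes.

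Cd44 was detected on 16 arrays by ILMN_3114585, which read between 806 and 2004, while its other 5 probes were detected on 0 arrays and read between 123 and 168. The platform annotates the detected probe to a different Cd44 transcript from the other 5. Which splice form the macrophages carried was not analysed here.

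The remaining genes were not called present by this rule. All 3 probes of syndecan 1, the best known shed syndecan of epithelia and plasma cells, were detected on 0 of 16 arrays. The brightest of them, ILMN_1228718, read between 132 and 177, with a lowest detection p of 0.0138. Syndecan 2 read between 132 and 156 and versican between 126 and 156, both detected on 0 arrays. Perlecan, the large heparan sulfate proteoglycan of basement membranes, was detected on 1 array, at 187 with a detection p of 0.00877. These signals were not well above background, so no comparison was made.

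**Figure D1:**
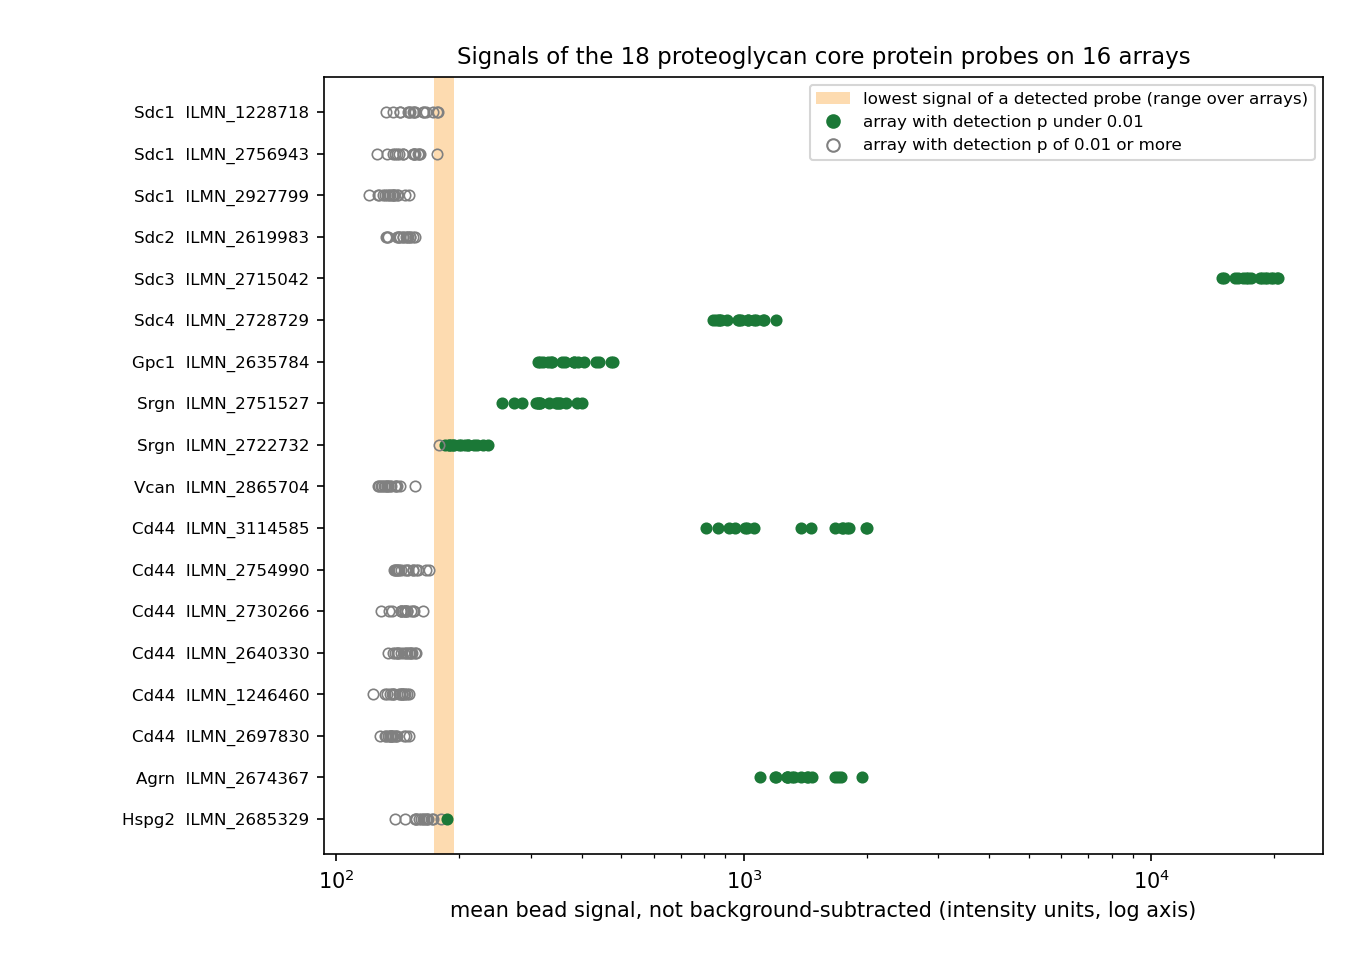
Mean bead signal (horizontal log axis, intensity units, background included) of each of the 18 probes (rows) on the 16 arrays (points). Filled points are detections, open points are not, and the band is the range over arrays of the lowest detected signal (173.5 to 194); the 7 tested probes lie mostly to its right, and the other 11 lie at or left of it.

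The cultures carried the macrophage markers that could be read: 6 of 6 with a probe (Adgre1, Itgam, Lyz2, Mertk, Fcgr1 and Cd14) were detected on 16 arrays. Neutrophil markers were detected as well, 8 of 8 on 16 arrays, with S100a8 between 8309 and 15666. Of other cell types, 0 of 5 dendritic, 0 of 6 T and NK, 1 of 7 mast and basophil (Hdc), 1 of 3 B (Cd79b), 1 of 3 erythroid and platelet (Pf4) and 5 of 11 stromal and endothelial markers were detected on any array. Each of the 2 slides carried a single genotype label, so slide and genotype cannot be told apart. Arrays of the same number took the same positions on both slides, so number and position cannot be told apart either. Treatment followed the layout too. On each slide agLDL arrays lay only at E to H, and every array without agLDL lay before these. An effect of agLDL therefore cannot be told apart from one of position. The arrays detected between 9241 and 10115 probes.

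The values below are log2 signals after neqc, which subtracts the background estimated from the negative controls, adds an offset of 16 and gives all arrays the same distribution. The offset makes differences of dim probes, such as both of Srgn, smaller than the change in RNA. For genotype and agLDL, each mouse gave 1 mean of its 2 arrays per treatment, and limma was fitted to these 8 means. The agLDL and untreated means of a mouse were not paired in this fit, so its standard errors and intervals for agLDL include the spread between mice. A fit with the number as a replicate block was run as well. For the numbers, the 16 arrays were fitted with group and number. Adjusted p is limma's with Benjamini-Hochberg adjustment over 10224 probes, a call is an adjusted p under 0.05, and ± after a difference is its standard error. Where a set of arrays is said to lie wholly above another or not to overlap it, the share of all probes that did so was not counted.

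No core protein was called between genotype labels or with agLDL. In each of the 5 comparisons (genotype without and with agLDL, agLDL under each genotype label, and their interaction) 0 of 7 probes passed, against 0% of all 10224 probes. Unadjusted p was under 0.05 for 512 of all probes between genotype labels without agLDL, 272 with agLDL, 314 for agLDL under the Ndst1-deficient label, 78 under the wild-type label and 115 for the interaction, where 511 would be under it by chance. With 2 mice per group, the 95% intervals of the 7 probes reached down to -0.55 and up to 0.83 in the 4 comparisons other than the interaction, and down to -0.76 and up to 0.71 in the interaction. The number of mice limits this precision, and this fit has no term for the mouse or array number. In the fit blocked by number, which counts the 2 arrays of a mouse and treatment separately, the intervals were narrower. The Cd44 interval for agLDL under the wild-type label was -0.21 to 0.25 there, against -0.40 to 0.44. With the number as a replicate block on the 16 arrays 0 of 7 probes passed as well, against 0.264% of all probes between the untreated genotype labels, 0.00978% with agLDL, 0.00978% for agLDL under the Ndst1-deficient label and 0% in the other 2 comparisons. The 7 differences had a median of 0.00 between genotype labels without agLDL, against 0.01 over all probes, and of 0.02 with agLDL, against 0.00. For agLDL the medians were 0.03 under the Ndst1-deficient label and 0.02 under the wild-type label, against -0.01 over all probes in both.

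Sdc4 was the core protein with the lowest unadjusted p between genotype labels. Without agLDL it read 9.89, 9.85, 9.85 and 10.10 on the arrays 2.2, 2.1, 1.2 and 1.1 labelled Ndst1-deficient, against 9.55, 9.73, 9.53 and 9.78 on the untreated wild-type arrays of the same numbers. All 4 arrays labelled Ndst1-deficient were above all 4 wild-type arrays, and array 1.1 was the highest under both labels. The means were 9.92 ± 0.07 for Ndst1-deficient and 9.64 ± 0.01 for wild-type (SD, 2 mice each). The difference was 0.28 ± 0.11, a 1.21-fold higher signal (95% interval 0.02 to 0.54, limma adjusted p = 0.983), so it was not called.

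With agLDL, Sdc4 read 9.82, 9.72, 9.66 and 9.93 on arrays 2.2, 2.1, 1.2 and 1.1 labelled Ndst1-deficient, against 9.54, 9.59, 9.68 and 9.65 on wild-type arrays. The groups overlapped, because array 1.2 labelled Ndst1-deficient was below the wild-type array of that number. The difference was 0.17 ± 0.11 (limma adjusted p = 1). The interaction of genotype and agLDL was -0.11 ± 0.16 (limma adjusted p = 1).

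Taking both treatments together, with the number as a replicate block on the 16 arrays, was done only once the data had been seen. It gave 0.23 ± 0.06 for Sdc4 (limma adjusted p = 0.058), where 1.97% of all probes were called and 0 of the 7 core protein probes. The means over the 4 arrays of a mouse were 9.82 and 9.89 for mice 2 and 1 labelled Ndst1-deficient, against 9.60 and 9.66 for mice 2 and 1 labelled wild-type. Over the averaged values without the block the adjusted p was 0.676, and over 1 value per mouse it was 1, at the same difference of 0.23. The genotype label accounted for 52.6% of the variance of Sdc4 over the 16 arrays, against a median of 3.3% over all tested probes. This share is a description, since the slide changes with the label.

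**Figure D2:**
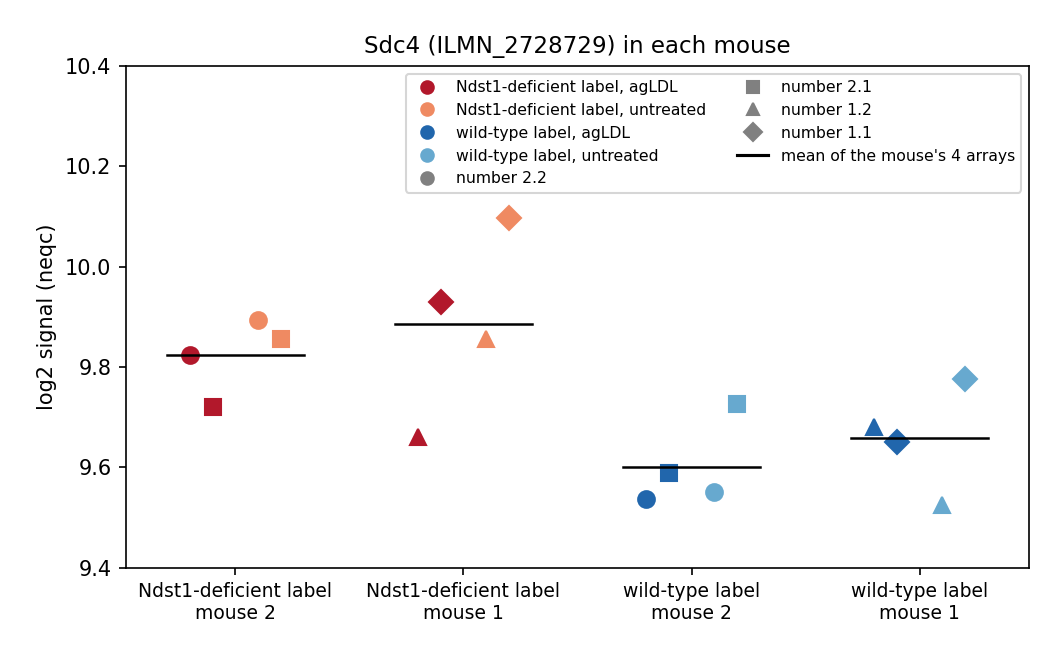
Sdc4 log2 signal (vertical axis) on the 16 arrays, by mouse (horizontal axis), with colours for the group, symbols for the number and a line at the mean of the mouse's 4 arrays. Both mice labelled Ndst1-deficient (means 9.82 and 9.89) lie above both labelled wild-type (9.60 and 9.66).

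Sdc3 was on the low side under the Ndst1-deficient label without agLDL. It read 14.04, 13.83, 14.00 and 14.06 on arrays 2.2, 2.1, 1.2 and 1.1 labelled Ndst1-deficient, against 14.21, 14.21, 14.17 and 14.26 on untreated wild-type arrays, so the groups did not overlap. The difference was -0.23 ± 0.13 (limma adjusted p = 1). With agLDL the groups overlapped, with a difference of -0.04 ± 0.13 (limma adjusted p = 1). The 2 treatments together, blocked by number, gave -0.14 ± 0.06 (limma adjusted p = 0.218).

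The 2 probes of serglycin, the granule proteoglycan, did not follow each other, and their correlation over the 16 arrays was 0.17. ILMN_2751527 read 7.37, 7.72, 8.05 and 8.01 with agLDL on arrays 2.2, 2.1, 1.2 and 1.1 labelled Ndst1-deficient, against 7.59, 7.87, 7.33 and 7.23 untreated. On wild-type arrays it read 7.70, 7.79, 7.78 and 8.02 with agLDL, against 7.82, 7.38, 7.54 and 7.28 untreated. All 4 pairs of arrays of mouse number 1 were higher with agLDL, by 0.25 to 0.78, whereas of the 4 pairs of mouse number 2 only the wild-type arrays 2.1 were higher, by 0.41. The agLDL difference was 0.28 ± 0.22 under the Ndst1-deficient label and 0.32 ± 0.22 under the wild-type label (limma adjusted p = 1 for both). With both labels together and the number as a block it was 0.30 ± 0.13 (limma adjusted p = 0.552), where 0% of all probes were called.

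The dimmer Srgn probe, ILMN_2722732, differed with agLDL by 0.03 ± 0.20 under each label (limma adjusted p = 1 for both). It was higher under the Ndst1-deficient label with agLDL, at 6.43, 6.47, 6.47 and 6.34 on arrays 2.2, 2.1, 1.2 and 1.1, against 6.33, 6.11, 6.10 and 6.07 on wild-type arrays. These groups did not overlap, and the difference was 0.27 ± 0.20 (limma adjusted p = 1). Without agLDL they overlapped, with a difference of 0.28 ± 0.20 (limma adjusted p = 1). ILMN_2751527 differed by -0.04 ± 0.22 between the genotype labels with agLDL and by 0.00 ± 0.22 without, so the serglycin probes did not give the same direction.

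Gpc1, Cd44 and Agrn lay close to 0 in the same comparisons. Their genotype and agLDL differences ranged between -0.05 and 0.12, each with a 95% interval that spanned 0. These intervals reached down to -0.50 and up to 0.57, both for Agrn. Interactions of genotype and agLDL over the 7 probes lay between -0.11 and 0.18.

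**Figure D3:**
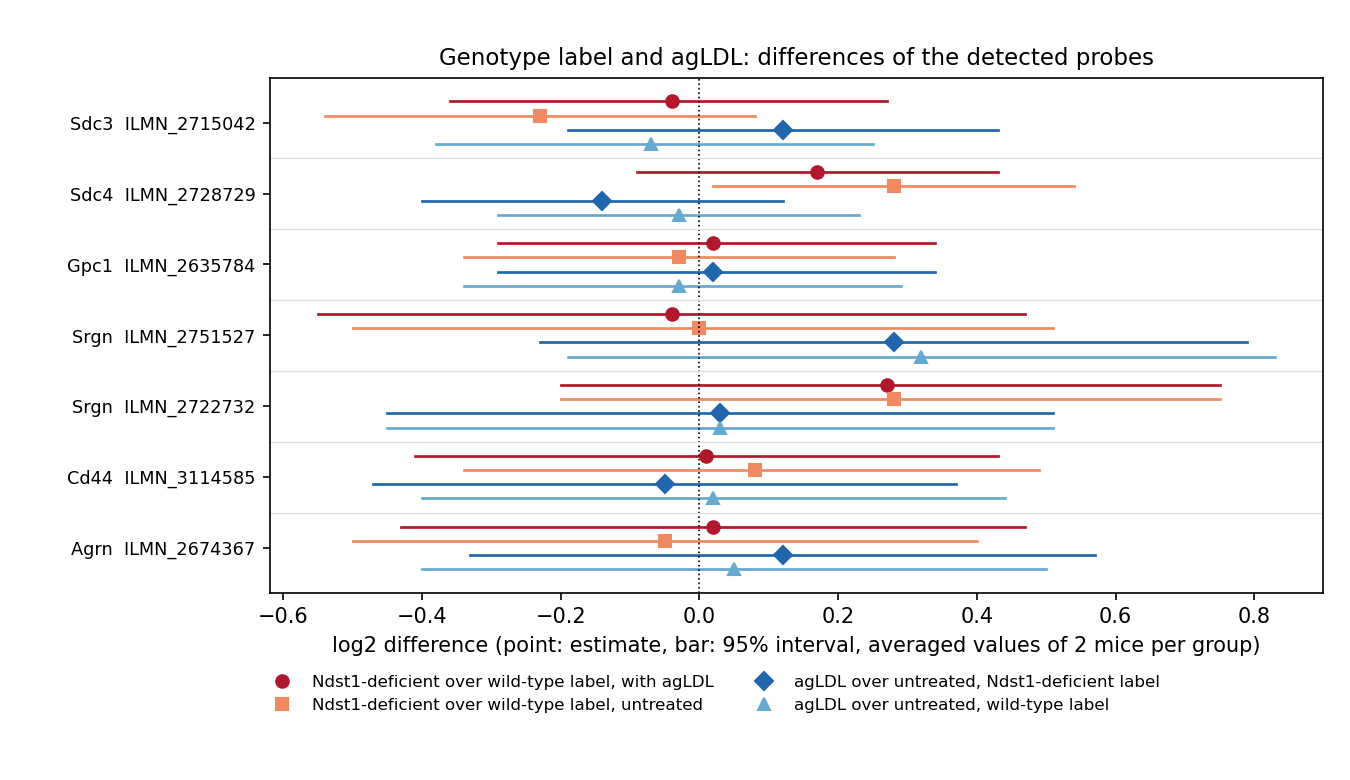
Log2 differences (horizontal axis) of the 7 tested probes (rows) between genotype labels and with agLDL, each with its 95% interval over the averaged values of 2 mice per group. The interval of Sdc4 between the untreated genotype labels (0.02 to 0.54) is the only one of these 28 that does not span 0.

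The other genes of proteoglycan synthesis and turnover were not called in these 5 comparisons either. Of the 8 lists examined, tests covered 8 of 36 other core proteins, 8 of 22 heparan sulfate chain enzymes and 7 of 16 chondroitin sulfate enzymes. They also covered 9 of 14 genes of the linkage region and of the supply of sugar and sulfate precursors. The rest were 13 of 22 proteases and inhibitors of shedding, 11 of 17 cytoplasmic partners of syndecans and CD44, 3 of 15 hyaluronan genes and 6 of 10 lipoprotein binding genes. In each list 0 genes passed in each of the 5 comparisons. Median differences of the heparan sulfate chain enzymes were -0.05 between genotype labels with agLDL and 0.00 without, against 0.00 and 0.01 over all probes.

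Cd44, Agrn and Gpc1 differed by the numbers of the arrays, while for Sdc4, Sdc3 and the Srgn probe ILMN_2751527 the labelled group held the larger share of the variance. The number accounted for 93.5% of the variance of Cd44, 82.1% of Agrn and 78.4% of Gpc1, against a median of 49.7% over all tested probes. It accounted for 32.2% of Sdc3, 27.9% and 1.2% of the Srgn probes ILMN_2722732 and ILMN_2751527, and 21.2% of Sdc4. The group accounted for 0.4% of the variance of Cd44, 2.6% of Agrn and 0.3% of Gpc1, against a median of 12.2% over all tested probes. Its share was 63.3% of Sdc4, 44.3% of Sdc3 and 32.4% and 27.5% of the Srgn probes ILMN_2751527 and ILMN_2722732. The group share includes the slide, which changes with the genotype label, and the position, which changes with the treatment. Same-numbered mice of the 2 genotype labels are different animals. What differed between the arrays of 1 mouse and treatment, beyond the duplicate number and the position on the slide, is not stated in the labels.

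Between duplicate numbers 2 and 1, 3 of 7 core protein probes were called, against 46.0% of all 10224 probes, so the share of the members was near the background. The members had a median difference of -0.01, the same as all probes.

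Cd44 was the furthest apart. It read 10.74, 10.90, 10.65 and 10.69 on arrays numbered 2.2, in the order Ndst1-deficient with agLDL and untreated, then wild-type with agLDL and untreated. On arrays 1.2 it read 10.62, 10.70, 10.52 and 10.38 in the same order of groups. On arrays 2.1 it read 9.78, 9.91, 9.90 and 10.15, and on arrays 1.1 9.76, 9.59, 9.81 and 9.56. All 8 arrays of duplicate number 2 were above all 8 of duplicate number 1, a separation that was not counted over all probes. The means were 10.65 ± 0.15 for duplicate number 2 and 9.81 ± 0.19 for duplicate number 1 (SD, 8 arrays each). The difference was 0.84 ± 0.08, a 1.79-fold higher signal (95% interval 0.68 to 1.00, limma adjusted p = 1.7e-06). In the 8 combinations of mouse and treatment it lay between 0.54 and 1.11, so it was higher in 8 of 8.

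Gpc1 was also higher on duplicate number 2. It read 8.16, 8.04, 8.36 and 8.49 on arrays 2.2 and 8.20, 8.05, 7.96 and 8.06 on arrays 1.2, in that order of groups. It read 7.72, 7.78, 7.70 and 7.71 on arrays 2.1 and 7.82, 7.94, 7.79 and 7.66 on arrays 1.1. Again the duplicates did not overlap, though arrays 1.2 (8.06 ± 0.10) lay closer to arrays 1.1 (7.80 ± 0.11) than arrays 2.2 (8.26 ± 0.20) to arrays 2.1 (7.73 ± 0.04; SD, 4 arrays each). The difference was 0.40 ± 0.08, or 1.32-fold higher (limma adjusted p = 0.00077), and it was higher in 8 of 8 combinations, by 0.11 to 0.78. The interaction of mouse and duplicate number was 0.27 ± 0.15 for Gpc1 and was called for 0 of the 7 probes, against 0.0782% of all (limma adjusted p = 0.716).

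Agrn moved the other way. It read 10.37, 10.22, 10.09 and 10.08 on arrays 2.2 and 10.01, 9.69, 10.13 and 10.17 on arrays 1.2. On arrays 2.1 it read 10.78, 10.65, 10.69 and 10.69, and on arrays 1.1 10.31, 10.43, 10.49 and 10.26. The 4 arrays 2.1 were above the other 12, and the duplicate numbers overlapped between arrays 2.2 and 1.1. The mean was 10.09 ± 0.20 for duplicate number 2 and 10.54 ± 0.19 for duplicate number 1 (SD, 8 arrays each). The difference was -0.44 ± 0.08, so Agrn was 1.36-fold lower on duplicate number 2 (limma adjusted p = 0.00036), and it was lower in 8 of 8 combinations of mouse and treatment, at -0.74 to -0.09.

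Sdc3, Sdc4 and both Srgn probes did not pass, with differences of 0.05 ± 0.06, -0.10 ± 0.06, -0.01 ± 0.13 (ILMN_2751527) and -0.07 ± 0.11 (ILMN_2722732). Adjusted p values from limma were between 0.152 and 0.937. Within the genotype labels and treatments, Cd44 and Agrn were called in all 4 subsets (each label and each treatment alone). Gpc1 was called within wild-type and agLDL arrays, and in the others was 0.29 within Ndst1-deficient (limma adjusted p = 0.071) and 0.39 within untreated arrays (limma adjusted p = 0.086).

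Between mouse numbers 2 and 1, 2 of 7 probes were called, against 30.9% of all probes, again near the background. Agrn had a mean of 10.45 ± 0.29 on mouse number 2 and 10.18 ± 0.25 on mouse number 1 (SD, 8 arrays each), a difference of 0.26 ± 0.08 (limma adjusted p = 0.019). Cd44 had 10.34 ± 0.45 on mouse number 2 and 10.12 ± 0.48 on mouse number 1, a difference of 0.22 ± 0.08 (limma adjusted p = 0.04). For both genes the mouse numbers overlapped over all arrays. By group, mouse 2 was above mouse 1 for Agrn by 0.42, 0.37, 0.08 and 0.17 and for Cd44 by 0.07, 0.26, 0.11 and 0.45, in the order Ndst1-deficient with agLDL and untreated, then wild-type with agLDL and untreated.

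The Cd44 call between mouse numbers was lost on leaving out any 1 of 10 of the 16 arrays, with limma adjusted p up to 0.091. These were the untreated wild-type arrays 2.2, 2.1, 1.2 and 1.1, the wild-type agLDL arrays 2.1 and 1.2, the untreated Ndst1-deficient arrays 2.2 and 1.1 and the Ndst1-deficient agLDL arrays 2.2 and 1.2. The Agrn call was kept in all 16 of these fits. Without the wild-type agLDL array 2.1 the Srgn probe ILMN_2722732 was called, at 0.32 (limma adjusted p = 0.044). Over the 8 averaged values neither gene was called, with a limma adjusted p of 0.10 for Cd44 and 0.059 for Agrn. Within each genotype label or treatment alone neither gene passed, with Agrn at 0.40 (limma adjusted p = 0.067) within Ndst1-deficient and 0.13 (limma adjusted p = 0.37) within wild-type arrays. The remaining probes did not pass. Sdc3 differed by -0.13 ± 0.06 (limma adjusted p = 0.104) and the Srgn probe ILMN_2722732 by 0.27 ± 0.11 (limma adjusted p = 0.075).

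**Figure D4:**
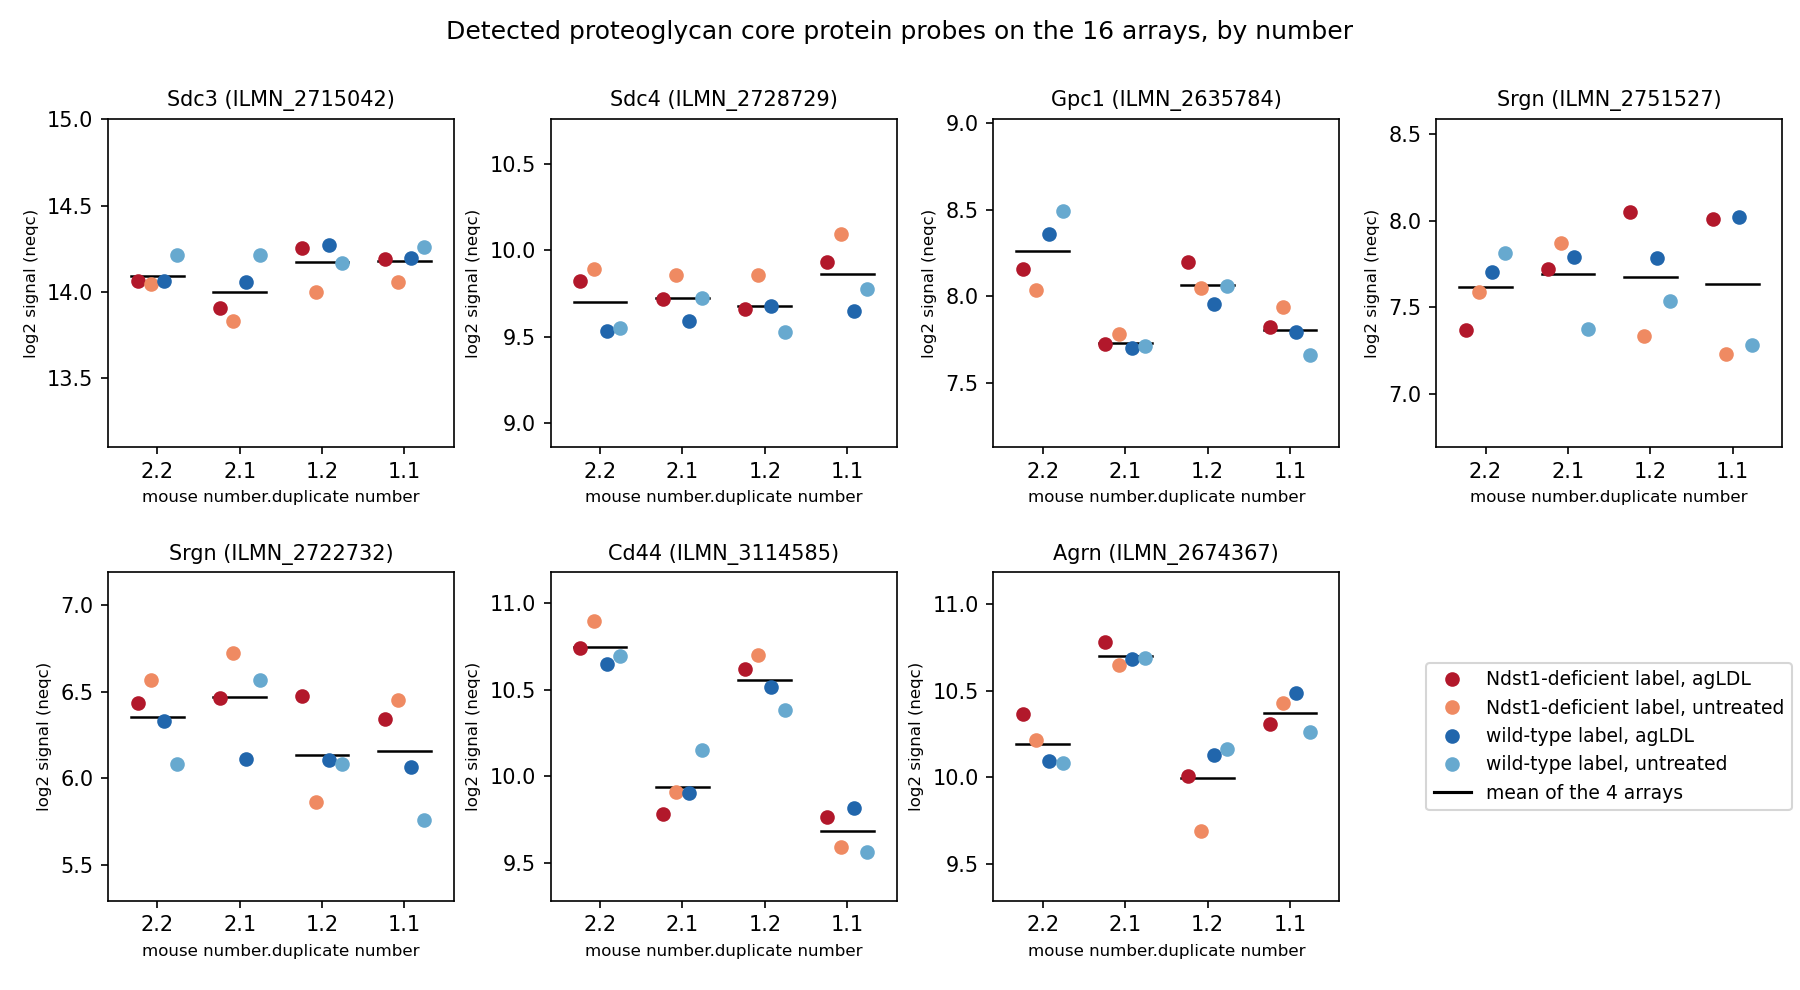
Log2 signal (vertical axes, the same span in each panel) of the 7 tested probes on the 16 arrays, by mouse and duplicate number (horizontal axis), with colours for the groups and a line at the mean of 4 arrays. Cd44 lies high on numbers 2.2 and 1.2 (means 10.74 and 10.55) against 2.1 and 1.1 (9.93 and 9.68), Gpc1 likewise, and Agrn is highest on 2.1 (10.70).

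**Figure D5:**
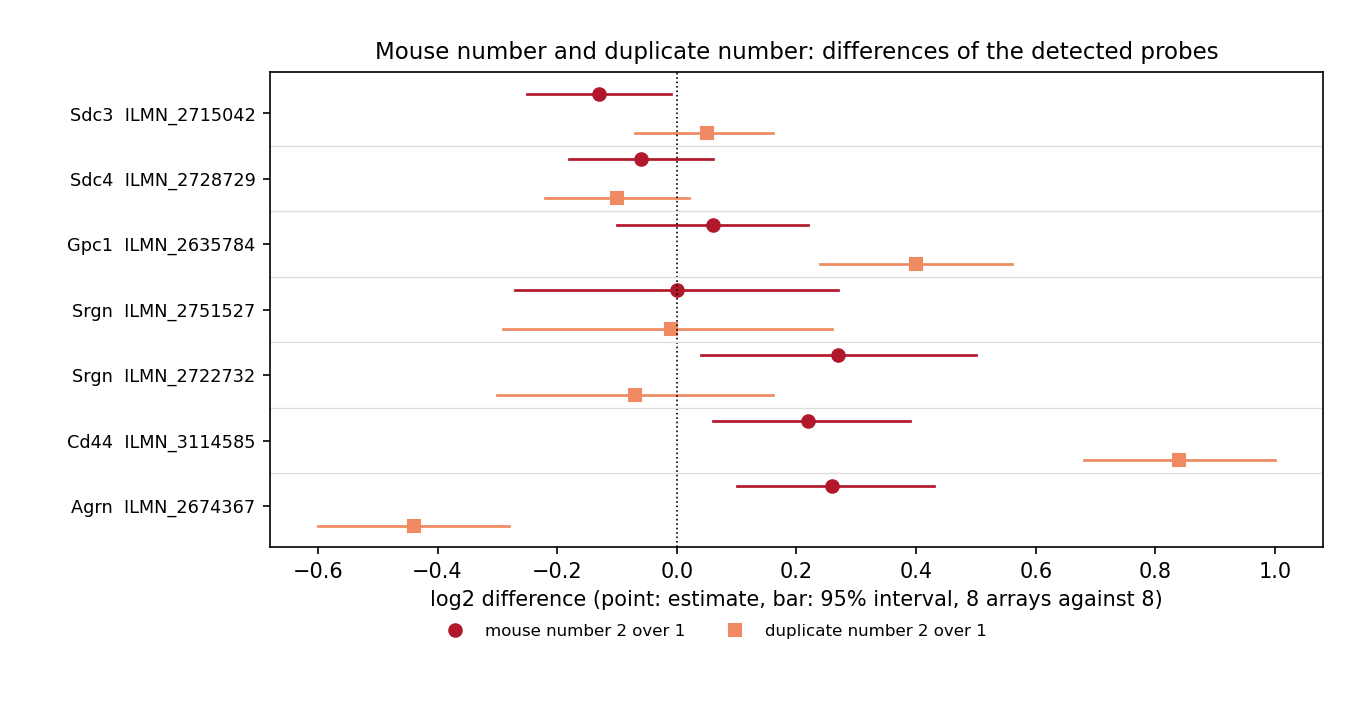
Log2 differences (horizontal axis) of the 7 tested probes (rows) between mouse numbers and between duplicate numbers, with 95% intervals over 8 arrays against 8. The duplicate numbers set Cd44 (0.84) and Gpc1 (0.40) to the right of 0 and Agrn (-0.44) to the left.

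Some markers of the cells were called between the numbers too. Over all probes 46.0% were called between duplicate numbers and 30.9% between mouse numbers. Calls among the markers are therefore not particular to them. The 6 macrophage markers had a summed raw signal of 57348 to 63561 on duplicate number 2, against 63636 to 76634 on duplicate number 1. Lyz2, at 35455 to 45373 over the 16 arrays, was the largest part of this sum. Of the 6 markers, 0 were called higher and 3 lower (Adgre1 -0.55, Cd14 -0.54 and Itgam -0.39). The B cell marker Cd79b (-0.81) was lower on duplicate number 2, and of 8 neutrophil markers Mpo (0.67) and Elane (0.45) were higher and Ltf (-0.28) lower. Between mouse numbers, all 3 tested stromal markers were lower on mouse number 2 (Acta2 at -1.66, Col1a1, detected 0 of 8 times on mouse 2 and 4 of 8 times on mouse 1, and Sparc, seen 0 of 8 times on mouse 2 and 8 of 8 times on mouse 1, at least 3.53-fold lower). The 11 stromal and endothelial markers summed to 2144 to 2496 on mouse number 2, against 3538 to 4839 on mouse number 1, with Col1a2, Col3a1, Dcn, Lum, Pdgfrb and Cdh5 detected on 0 arrays. These sums include background and follow mainly Acta2, which read between 650 and 3040, while Sparc read between 158 and 384. They are therefore no measure of the 11 markers as a set. Of the neutrophil markers, 3 of 8 were higher on mouse number 2 (Retnlg 0.52, Ltf 0.33 and S100a8 0.29). Of the 6 macrophage markers, 3 were higher on mouse number 2 (Cd14 0.42, Mertk 0.28 and Adgre1 0.22) and 1 lower (Fcgr1 -0.68). The platelet marker Pf4 (0.48) was higher on mouse number 2, and the mast cell and basophil marker Hdc was lower on mouse number 2 (-0.61) and on duplicate number 2 (-0.23). Cd79b, Pf4 and Hdc were each the only detected marker of their list, so they do not show that such cells were present. The part of cell types in the differences of Cd44, Gpc1 and Agrn was not tested. In these cultures fewer cells of a type and less RNA per cell cannot be told apart.

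Genes that act on or with the core proteins also differed between duplicate numbers. Of 13 tested shedding genes, 5 were higher and 6 lower on duplicate number 2. Over all probes 46.0% were called on this comparison, 22.4% higher and 23.7% lower, so calls in the lists below are not particular to them. Mmp12, the macrophage elastase, was higher by 2.90 ± 0.14 (limma adjusted p = 1.3e-08), the collagenase Mmp13 by 0.79 and the sheddase Adam8 by 0.71. Mmp14, a membrane protease known to cleave CD44 and syndecan 1, was lower, at -1.18 ± 0.14 (limma adjusted p = 1.4e-05), as were the gelatinases Mmp2 (-0.72, detected on 1 of 8 arrays of duplicate number 2 and 5 of 8 of duplicate number 1) and Mmp9 (-0.70). Of 3 hyaluronan genes, the hyaluronidases Hyal1 (1.87) and Hyal2 (0.76) were higher. The hyaluronan synthases Has1, Has2 and Has3 were detected on 0 arrays.

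The chain enzymes split in direction. Of 8 heparan sulfate chain enzymes, 3 were higher on duplicate number 2, the chain polymerase subunit Ext1 by 0.69 ± 0.06 (limma adjusted p = 1.9e-06), the sulfotransferase Hs6st1 by 0.40 and Extl3, which starts the chain, by 0.17. Another 4 were lower, among them the chain-cleaving heparanase Hpse (-0.70), the sulfotransferase Hs2st1 (-0.47) and the polymerase partner Ext2 (-0.27). Of 7 chondroitin sulfate enzymes, the sulfotransferase Chst3 was higher, detected on 7 of 8 arrays of duplicate number 2 and 0 of 8 of duplicate number 1, at least 1.40-fold higher. Another 4 were lower, among them Chst15 (-0.94), Chst7 (-1.53, above background 4 of 8 times on duplicate number 2 and 8 of 8 on duplicate number 1) and Chst14 (-0.30, above background 3 of 8 and 7 of 8 times in that order). Of 9 linkage region and precursor genes, the galactosyltransferase B3galt6 (0.85) and B3gat3, which adds the last sugar of the linkage (0.29), were higher. The xylosyltransferase Xylt2 was lower (-0.33).

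Of 11 cytoplasmic partners, 5 were higher on duplicate number 2, led by the actin crosslinker Actn4 (0.62), the syndecan 4 adaptor Gipc1 (0.47) and Actn1 (0.31). The syndecan-binding kinase Cask (-0.48) and the exchange factor Tiam1 (-0.25) were lower. Of 8 other core proteins, Col18a1, the collagen with heparan sulfate chains, was higher (0.57), and Cd74 (-0.61) and biglycan, Bgn (-0.42, above background 4 of 8 times on duplicate number 2 and 5 of 8 on duplicate number 1), were lower. Of 6 lipoprotein binding genes, the fatty acid and oxidised LDL receptor Cd36 was higher (1.09, detected on 8 of 8 arrays of duplicate number 2 and 3 of 8 of duplicate number 1). Scarb1 (-0.37) and the transfer protein Pltp (-0.24) were lower. The list medians on this comparison lay between -0.27 (chondroitin sulfate enzymes) and 0.76 (hyaluronan genes), against -0.01 over all probes.

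Between mouse numbers, 6 of the 8 other core proteins were called and 9 of the 13 shedding genes, where 30.9% of all probes were, 16.3% higher and 14.6% lower. Arrays of a mouse are not independent, so the standard errors and p-values here do not measure the spread between mice alone. They may therefore be too small. Col18a1 was higher on mouse number 2 by 1.62 ± 0.12 (limma adjusted p = 4.1e-07), Prg2, the eosinophil major basic protein, by 0.93 and Cd74 by 0.64. Biglycan was above background 1 of 8 times on mouse 2 and 8 of 8 times on mouse 1, beside the lower stromal markers above. Its fitted difference was -2.25 (limma adjusted p = 3.9e-09), which rests on mouse 2 values that were mostly not above background. Of the 13 shedding genes, 4 were higher, led by Mmp9 (0.83), Timp2 (0.33) and Adam17 (0.32), and 5 lower, led by the inhibitor Timp1 (-1.91, detected 5 of 8 times on mouse 2 and 8 of 8 times on mouse 1), Mmp13 (-1.02) and Mmp2 (-0.86, detected 1 of 8 times on mouse 2 and 5 of 8 on mouse 1).

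Between mouse numbers, 2 of 8 heparan sulfate enzymes, 3 of 7 chondroitin sulfate enzymes and 3 of 9 linkage region and precursor genes were called. Of all probes, the same 30.9% were called. Of the heparan sulfate enzymes, Hs2st1 was higher on mouse number 2 (0.37) and Ext1 lower (-0.26). Among the chondroitin sulfate enzymes Chsy1 (0.28), Chst7 (1.06) and Chst3 (0.35) were higher. Chst7 was above background 8 of 8 times on mouse 2 and 4 of 8 on mouse 1, and Chst3 only 4 of 8 and 3 of 8 times in that order, so values of both rest partly on background. Of the linkage region and precursor genes, the sulfate donor synthase Papss1 was higher (0.21), and B3galt6 (-0.43) and Xylt2 (-0.28) were lower. Of the partners, Tiam1 (0.29) and Actn1 (0.28) were higher and the CD44 linker Msn (-0.34) and Actn4 (-0.24) lower. The hyaluronan receptor Stab2 (0.48) was higher and Hyal1 (-0.70) lower, and of the lipoprotein binding genes Pltp (0.51) and Scarb1 (0.39) were higher.

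Across the 16 arrays Gpc1 and Cd44 correlated at 0.77 (Pearson, a description over arrays that share mice), and Agrn at -0.66 with Gpc1 and -0.63 with Cd44. All other pairs of the 7 probes lay between -0.45 and 0.47. The probes most like Cd44 over the 16 arrays were those of Atp6v0a1 (0.976), Gadd45a (0.96) and Rnf128 (0.955). Those most like Gpc1 were Nomo1 (0.909), Slc7a11 (0.899) and Tmem65 (0.893), and for Agrn Zfp277 (0.951), followed by 2 probes without a gene name. For Sdc3 they were Tbl1x (0.9), Clip1 (0.888) and Tmem63a (0.877), and for Sdc4 Fer (0.836), Akr1b10 (0.805) and Lsm3 (0.789). Serglycin's brighter probe had weaker likenesses, with Atp5l at 0.747 and Cdc27 at 0.74.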

How the data were processed

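Total RNA of bone marrow derived macrophages was measured on 16 biotin-labelled Illumina arrays, per the labels' protocols. The authors deposited mean bead intensity values per probe that were neither background-subtracted nor normalized, per the file headers and the values. Each value has a deposited detection p-value, per the file headers. The only software credited is GenomeStudio, per the submitters' processing notes, with no version. The authors' series-matrix values, linear intensities with a background subtracted and a common distribution, were used as an alternative; their exact normalization is unknown.

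Signals were processed with limma 3.58.1 and statmod 1.5.0 in R 4.3.3. Background was estimated by neqc through the detection p-values, followed by an offset of 16, quantile normalization and log2. Probes with a detection p under 0.01 on at least 4 arrays were kept (10224), and each member probe was fitted separately. Genotype and agLDL were tested on 8 averaged values with the group as the only term (4 residual degrees of freedom), and the numbers on 16 arrays with group and number as terms (9 residual degrees of freedom), with Benjamini-Hochberg adjustment at 0.05. Arrays of 1 mouse are not independent, so p-values over 16 arrays reflect array-to-array spread within a mouse as well. Gene lists were read by the probe detected on most arrays, then the brightest.

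Whether numbers shared by the groups pair the arrays was checked by correlating deviations from the group means: 24 same-number pairs lay between 0.445 and 0.814, 72 pairs of different numbers between -0.794 and 0.34, and 16 of 16 arrays correlated best with their own number. The number was therefore also used as a replicate block. Pooled comparisons over both treatments or both labels were added after the data were seen. A probe detected on 0 arrays of a side was given a bound: the other side's mean was set against a floor, which on each array was the dimmest detected probe or the probe itself, whichever was brighter. All probes of the members were accounted for, the 3 probes of other genes with the highest Pearson correlation were named for each member by its probe detected on most arrays, then the brightest, and up to 3 called genes in each direction were named per list. The members and lists were chosen with earlier results of these data known. The fits were also run on simulated data with noise independent between arrays. This does not test how they handle arrays that share a mouse. Promoter sequences are from RefSeq (GRCm38.p6); the deposited files name no build.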

Additional observations from a re-analysis of the deposited data

Results flagged for a closer look

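The array 1.1 of untreated macrophages labelled Ndst1-deficient read 10.10 for Sdc4, while the other 3 arrays of its group read between 9.85 and 9.89. Its gap to the nearest of them was 0.837 of the range of the group, above Dixon's critical value of 0.829 for 4 arrays. This was 1 of 28 sets of 4 arrays examined, and chance sets apart about 1 in 20. Array 1.1 was also the highest of the 4 untreated wild-type arrays, at 9.78.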

How the results depend on the processing

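The alternatives changed the background correction, the offset, the detection filter, the source of the values, the subsets of arrays and the arrays left out. Between duplicate numbers 3 member probes were called in the fit reported, 2 to 3 under the alternatives and 3 without any single array. Between mouse numbers 2 were called in the fit reported, 1 with a median shift in place of quantiles and 1 with no detection filter (Agrn both times), and 0 within either genotype label, 0 within either treatment and 0 over the 8 averaged values. Leaving out each array in turn gave 1 to 2. For both treatments pooled, 0 were called between genotype labels in the fit reported, and 1 (Sdc4) without background correction (0.20, limma adjusted p = 0.025), with an offset of 50 (0.22, limma adjusted p = 0.046) and among probes detected on all 16 arrays (0.23, limma adjusted p = 0.041). Leaving out each array in turn gave 0 to 1, the calls being Sdc4 without the wild-type agLDL array 1.2 (0.25, limma adjusted p = 0.049) and the Srgn probe ILMN_2722732 without the untreated Ndst1-deficient array 1.2 (0.36, limma adjusted p = 0.047). The cause was not tested. These pooled fits were blocked by number over arrays that share mice. Sdc4 was not called over the averaged values without the block (0.23, limma adjusted p = 0.676) or over 1 value per mouse. With the replicate block, 0 member probes were called in each of the 5 comparisons of genotype and agLDL, as without it; of all probes, 0.00978% passed for agLDL under the Ndst1-deficient label, 0.264% between untreated genotype labels, 0.00978% between those given agLDL, and 0% in the other 2. No value changed sign while called. Probes near background are limited by the signal, and all comparisons by 2 mice per group.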
